A study of Danio rerio with 3 samples.

Results

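The 4 genes lepb, il34, cxcl12a and edn2 encode secreted signalling proteins and were followed, out of 26320 genes measured, through single cells of the adult zebrafish heart before and after loss of cardiomyocytes. They were chosen by their levels in endothelial-like cells, which were higher 3 days after injury than before it, so their day 3 against day 0 differences describe the choice and support nothing on their own. Cells were captured by droplets (10x Chromium), with each transcript molecule counted once by its unique molecular identifier (UMI). Each of 3 time points had 1 library, made from hearts of 6 adult AB fish (3 males and 3 females, about 5 to 12 months old) whose cells were pooled. Day 0 hearts were taken prior to any metronidazole. Day 3 and day 7 hearts came from fish that had been given 5 mM metronidazole in 0.1% dimethyl sulfoxide over 48 hours, a drug that a bacterial nitroreductase turns into a poison inside the cells that carry it. The study lists a fish line in which the vmhc promoter, active in ventricular muscle, drives that enzyme, but the labels do not tie it to these libraries. The drug and the injury cannot be told apart here, since day 0 fish had neither.

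Leptin is a hormone of energy balance in mammals, and in zebrafish lepb is known for being switched on in wounded fins and hearts, where an enhancer beside it is used to mark regenerating tissue. Il34 is a growth factor for macrophages and microglia that binds the receptor of colony stimulating factor 1. Cxcl12a is a chemokine that steers migrating cells through the receptor Cxcr4, while Ackr3 removes it from the surroundings. Edn2 belongs to the endothelins, small peptides cut to their active form by endothelin-converting enzyme, which act on G protein-coupled receptors and are best known for narrowing blood vessels. Endocardial and other endothelial cells line the heart chambers and vessels and are one source of such signals after injury.

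The libraries held 272 cells at day 0, 114 at day 3 and 368 at day 7, with 857410, 493660 and 1355246 UMIs and medians of 2677, 3260.5 and 3124.5 UMIs per cell. The labels state 141 recovered cells for day 3. Deposited clusters 0, 2, 3 and 6 were endothelial-like by marker genes, cluster 1 mural-like (contractile vessel wall cells), cluster 4 fibroblast-like and cluster 5 cardiomyocyte-like. Endothelial-like cells made up 166 cells at day 0, 113 at day 3 and 224 at day 7, so at day 3 they were nearly the whole library. The clusters within that class changed too: at days 0, 3 and 7 cluster 0 had 72, 16 and 193 cells, cluster 2 had 86, 3 and 9, cluster 3 had 6, 60 and 22, and cluster 6 had 2, 34 and 0. Mural-like cells numbered 88, 0 and 61, and fibroblast-like cells 0, 1 and 53. A level of the class therefore differs between days through its makeup as well as within its cells, and these cannot be told apart for a cluster held by 1 day. The 10 leading genes of cluster 0 and of cluster 3 held no endothelial marker, although cells of both expressed the list, and those of cluster 3 included the chaperone gene hsp90b1 as well as lepb and edn2 themselves. The clusters were made from the same cells and genes, so where a ligand sits among clusters is partly built into them. A single cell barcode occurred in 2 libraries, in cells with no UMI of the 4 genes.

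The ligands divided into 2 patterns. At day 3, transcripts of lepb, il34 and edn2 lay mostly in cluster 3, the largest group of that day's cells. At day 7 that cluster held 9 of 13 lepb, 6 of 39 il34 and 25 of 54 edn2 UMIs. Transcripts of cxcl12a lay mostly in mural-like cells at day 0, endothelial-like cluster 6 at day 3 and fibroblast-like cells at day 7, but each of these groups was missing or nearly so from at least 1 of the other libraries. Levels are summed UMIs of a group scaled per 1e6 UMIs of that group (CPM), with exact Poisson intervals at 95%. With 1 library per day there are no p-values, and every interval covers counting error only, not the variation between fish. Intervals of levels and folds also leave out the clumping of UMIs in single cells.

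**Figure D1:**
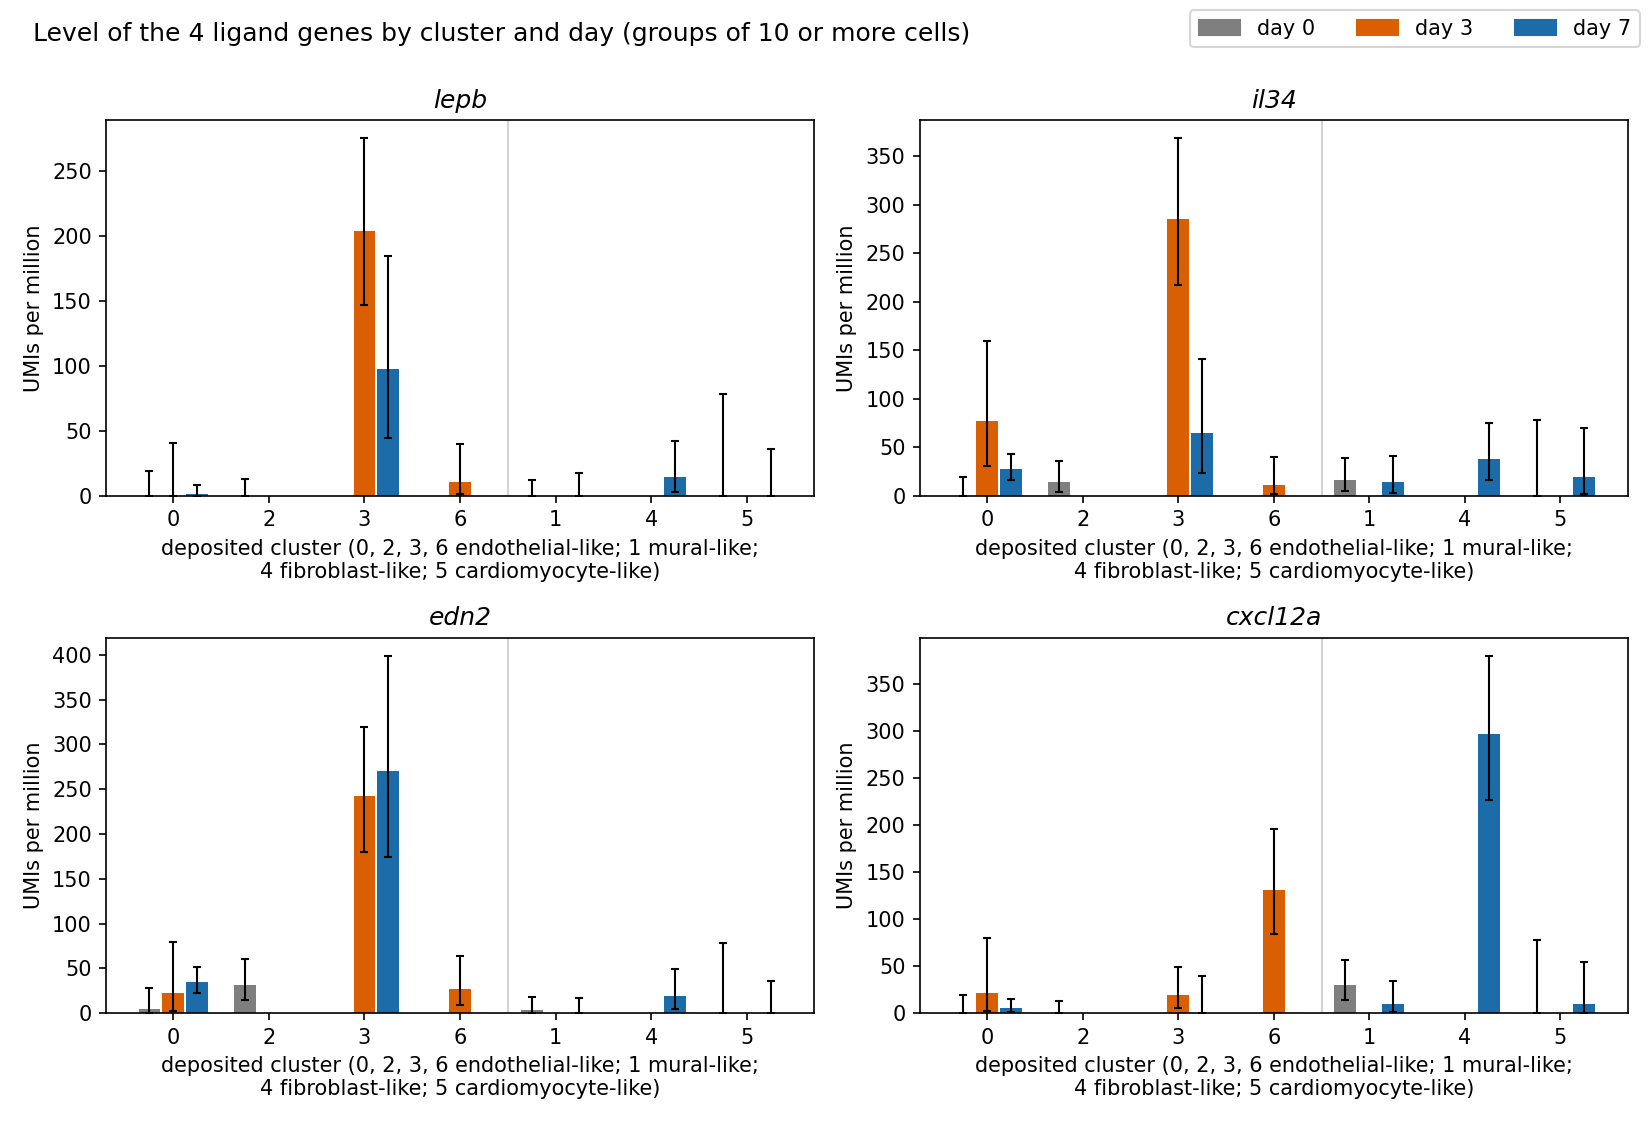
Level (CPM, bars) of each ligand gene in every group of cluster and day with at least 10 cells, with 95% Poisson intervals as black lines; colours give the day, and a line without a bar is a group at 0. The tallest bars of lepb, il34 and edn2 stand in cluster 3, whereas cxcl12a is highest in cluster 4 at day 7 (296) and next in cluster 6 at day 3 (131).

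No lepb transcript was seen before injury. Its UMIs numbered 0 at day 0, 45 at day 3 and 13 at day 7, in 0 of 272, 26 of 114 and 7 of 368 cells. A count of 0 in that library allows a level of up to 3.5 CPM and a share of cells with a UMI of up to 1.1% (3 counts), and does not limit the share of cells that express the gene. In endothelial-like cells the level went from 0 to 89.9 CPM (65.4 to 121) at day 3 and 12.0 CPM (5.77 to 22.1) at day 7. This is at least 15.3-fold higher at day 3 than at day 0, and 7.48-fold lower at day 7 than at day 3 (interval 3.71 to 16.7). Of the 45 UMIs at day 3, 42 lay in cluster 3, in 23 of its 60 cells (38.3%, exact Clopper-Pearson interval 26.1 to 51.8).

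Among the 12 groups of cluster and day with at least 10 cells, cluster 3 of day 3 was highest in lepb at 203 CPM (147 to 275), followed by cluster 3 of day 7 at 97.2 (44.5 to 185). The ratio between these neighbours was 2.09 (1.00 to 4.89), and 7 of the 9 day 7 UMIs came from a single cell, which also held 7 UMIs of edn2. Below them came cluster 4 of day 7 (14.3 CPM), cluster 6 of day 3 (10.9) and cluster 0 of day 7 (1.45), whose intervals overlap, and the other 7 groups were at 0. Leaving out the richest cell brings the endothelial-like log2 ratio of day 7 to day 0 from 1.14 to 0.45, so most of the lepb signal left at day 7 rests on 1 cell. The 2 cluster 6 cells with lepb at day 3 were deep, with a median of 12952 UMIs against 4408 in that cluster. When every cell was thinned to 2000 UMIs, cluster 3 kept 20 lepb cells of 60 and cluster 6 kept 0 of 34.

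Il34 was present at a low level before injury. Its UMIs numbered 9 at day 0, 68 at day 3 and 39 at day 7, in 8, 28 and 24 cells. Day 0 UMIs came from mural-like cluster 1 (5 UMIs, 16.6 CPM, 5.40 to 38.8) and endothelial-like cluster 2 (4 UMIs, 14.2 CPM, 3.86 to 36.2), with no cell over 2 UMIs. In endothelial-like cells the day 0 level of 7.85 CPM (2.14 to 20.1) compared with 139 (108 to 176) at day 3 and with 31.3 (20.4 to 45.8) at day 7. Day 3 was thus 17.7-fold above day 0 (6.60 to 66.8), and day 7 was 3.98-fold above day 0 (1.38 to 15.7).

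In contrast to lepb, il34 was spread over several clusters. At day 3 it reached 286 CPM (217 to 368) in cluster 3, in 22 of 60 cells, and 77.3 CPM (31.1 to 159) in cluster 0, in 4 of 16 cells, against 10.9 CPM (1.33 to 39.5) in cluster 6, in 2 of 34. At day 7 the levels were 64.8 CPM in cluster 3, 38.2 in fibroblast-like cluster 4, 27.5 in cluster 0, 19.4 in cardiomyocyte-like cluster 5 and 14.2 in mural-like cluster 1. Below the top group no 2 neighbours in this order differ beyond their intervals. Mural-like cells, present at both day 0 and day 7, had 16.6 and 14.2 CPM, a ratio of 0.851 (0.132 to 4.38). Cluster 0, in contrast, had no il34 UMI in 72 cells at day 0 and 19 UMIs in 193 cells at day 7, at least 1.79-fold higher. The richest day 3 cell gave 13 of the 68 UMIs, and without the richest cell of each day the log2 ratio of day 3 to day 0 was 2.95 in place of 3.06.

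The edn2 level in cluster 3 did not differ between days 3 and 7 beyond counting error, although few cells set the day 7 value. Its UMIs numbered 15, 57 and 54 at days 0, 3 and 7, in 7, 30 and 25 cells. Endothelial-like cells had 27.5 CPM (15.0 to 46.1) before injury, 117 (88.2 to 151) at day 3 and 60.2 (44.6 to 79.3) at day 7. These levels make a 4.24-fold difference of day 3 from day 0 (2.33 to 8.24) and a 2.19-fold difference of day 7 from day 0 (1.19 to 4.29). Cluster 3 had 242 CPM (180 to 319) at day 3 and 270 CPM (175 to 399) at day 7, a ratio of 1.12 (0.661 to 1.84). At day 7, 6 of 22 cells held all 25 UMIs, 9, 7 and 5 of them in single cells, and without the richest the level was 177 CPM. The share of cells with edn2 was 27.3% at day 7 (10.7 to 50.2) and 40.0% at day 3 (27.6 to 53.5). The lower endothelial-like total at day 7 went with fewer cluster 3 cells, 22 of 224 against 60 of 113.

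The remaining groups had edn2 levels between 34.8 CPM in cluster 0 of day 7 and 3.32 in cluster 1 of day 0, with overlapping intervals between neighbours, and none was seen in day 0 cluster 5, day 7 cluster 1 or day 7 cluster 5. Few cells set several of these values. At day 0, 9 of the 14 endothelial-like UMIs came from 2 cells, each with at least 5 UMIs of macrophage or monocyte markers. Without cells of that kind the day 0 level was 11.4 CPM, the day 3 level 131 CPM, and the log2 ratio 2.72 in place of 1.75. At day 3 a single cluster 3 cell of 9824 UMIs held 16 of the 57 UMIs. Cluster 3 had 6 cells at day 0, and 1 of them, counted above, held 3 edn2 UMIs, so within that cluster the ratio of day 3 to day 0 was 1.54 with an interval from 0.497 to 7.72. Without the richest cell of each day the log2 ratio in cluster 3 went from 0.59 to 4.19, a value that rests on that single day 0 cell.

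Cxcl12a was not seen in endothelial-like cells at day 0, which by 3 counts allows up to 5.89 CPM and 1.81% of cells with a UMI. It was seen in 6 of 88 mural-like cells of that day (9 UMIs, 29.9 CPM, 13.7 to 56.8). Endothelial-like cells had 31 UMIs at day 3, 63.4 CPM (43.1 to 89.9), at least 10.8-fold higher than at day 0. Their day 7 level was 6.02 CPM (1.95 to 14.0), 10.5-fold below day 3 (4.06 to 34.7). Cluster 6, which held 24 of the 31 day 3 UMIs, had 2 cells at day 0 and 0 at day 7, so whether the level changed within it cannot be read from these libraries. At day 3 the gene stood highest in cluster 6, whose leading genes include the endothelial markers aplnra, klf2a and vwf, with 24 UMIs in 16 of 34 cells (131 CPM, 84.2 to 195). Cluster 3 had 4 UMIs in 4 of 60 cells (19.4 CPM, 5.28 to 49.6).

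At day 7, 62 of the 70 cxcl12a UMIs lay in fibroblast-like cluster 4, in 25 of 53 cells (47.2%, 33.3 to 61.4). Its level there was 296 CPM (227 to 380), 49.3-fold above endothelial-like cells of the same library (20 to 157), where 17.6% of genes were higher in cluster 4 by a log2 ratio of at least 1, and 2.26-fold above cluster 6 of day 3 (1.39 to 3.78). Cluster 4 had no day 0 cell and a single day 3 cell, and that cell held 3 UMIs of cxcl12a and 1 of lepb. Over all cells the level was 10.5, 68.9 and 51.7 CPM at days 0, 3 and 7, and day 7 did not differ from day 3 beyond counting error (0.75-fold, 0.491 to 1.17). The day 3 library had 0 mural-like cells and 1 fibroblast-like cell, so the levels of those cells at day 3 are not known. Mural-like cells had 9.43 CPM at day 7 and 29.9 at day 0 (0.315-fold, 0.0332 to 1.52), and cardiomyocyte-like cells had 1 UMI. Next in order below cluster 6 stood the mural-like cells of day 0, followed with overlapping intervals by clusters 0 and 3 of day 3 and clusters 5, 1 and 0 of day 7. The other 4 groups were at 0.

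The members' differences were set against those of all genes. A log2 ratio of at least 1, on levels with 10 CPM added, was reached by all 4 members in endothelial-like cells at day 3 against day 0, and by 459 of the 4137 genes with at least 10 UMIs in both groups together (11% higher, with 13.0% lower by as much). This is the contrast by which the members were chosen. Over all cells at day 3 the 4 members also passed, where 8.46% of genes did. Endothelial-like cells were 113 of the 114 day 3 cells, so this nearly repeats the contrast of the choice. At day 7 against day 0, lepb at 1.14 and il34 at 1.21 were past that size, edn2 at 0.90 and cxcl12a at 0.68 were not, and 6.6% of genes were. With 5 UMIs at day 7 and 0 at day 0, cxcl12a was under the minimum of 10 and is not among those genes. From day 3 to day 7 lepb (-2.18), il34 (-1.85) and cxcl12a (-2.20) were lower by at least 1, edn2 (-0.85) was not, and 10.7% of genes were. Both of the last comparisons share a library with the first.

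Within the day 3 library the comparison of cluster 3 with cluster 6 sets both patterns against the same day and capture. Lepb was 18.6-fold higher in cluster 3 (4.83 to 158), il34 26.1-fold (6.91 to 221) and edn2 8.85-fold (3.55 to 28.4), while cxcl12a was 6.78-fold lower (2.33 to 26.9). These 2 clusters were far apart throughout: 22.5% of genes were higher in cluster 3 by a log2 ratio of at least 1 and 17.7% lower. Cluster 6 cells were deeper, with a median of 4408 UMIs against 2880.5, and at 2000 UMIs per cell cxcl12a was seen in 7 of 34 cells of cluster 6 and 4 of 60 of cluster 3.

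**Figure D2:**
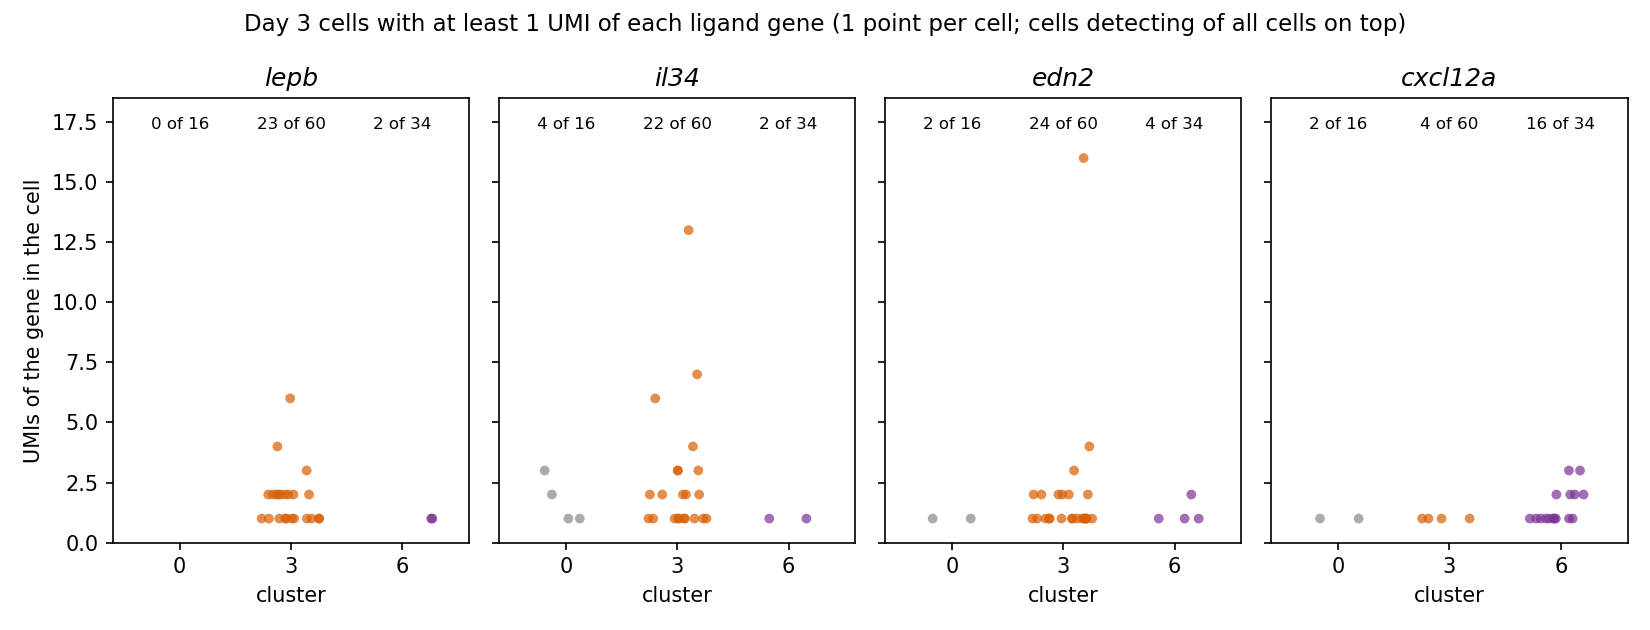
UMIs of each ligand gene in every day 3 cell that had at least 1 (points, spread sideways for legibility), by cluster, with the number of such cells among all cells of the cluster above. Most cells held 1 or 2 UMIs; the single cells with 13 UMIs of il34 and 16 of edn2 stand apart in cluster 3, and cxcl12a did not exceed 3 UMIs in any cell.

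Detection in mural-like and cardiomyocyte-like cells was low. At day 7, lepb and edn2 were seen in 0 of 61 mural-like cells and 0 of 30 cardiomyocyte-like cells, which by 3 counts allows up to 4.92% and 10.0% of cells with a UMI (not cells expressing the genes), with median depths of 2770 and 3288 UMIs. Il34 was seen in 3 of 61 and 1 of 30, and cxcl12a in 2 of 61 and 1 of 30. The il34 share of 4.66% in cluster 0 at day 7 (9 of 193 cells, median depth 2976) was no higher than its 4.92% in mural-like cells, although 6 of those 9 cells had 2 or more UMIs and none of the mural-like cells had.

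At day 3 most cells held at least 1 of the 4 transcripts at full depth, though not after thinning, and some held several. A ligand UMI was found in 21 of 272 cells at day 0 (7.72%, 4.84 to 11.6), 70 of 114 at day 3 (61.4%, 51.8 to 70.4) and 72 of 368 at day 7 (19.6%, 15.6 to 24.0). Cells with 2 or more of the 4 genes numbered 0, 29 and 13. The members were chosen as higher at day 3 than at day 0, so this difference partly follows from the choice. The day 3 share of such cells was 25.4% (17.7 to 34.5) and the day 7 share 3.53% (1.89 to 5.97). Deeper cells showed more ligands: median UMIs at day 3 were 2790 in cells with none, 3346 with 1 and 4083 with 2 or more. Thinned to 2000 UMIs, 13 cells of day 0 (4.78%), 50 of day 3 (43.9%) and 61 of day 7 (16.6%) held a ligand UMI. At that depth 16 cells of day 3 (14.0%) and 5 of day 7 (1.36%) still had 2 or more.

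Overlap at day 3 was concentrated in cluster 3, where 44 of 60 cells held a ligand and 22 held 2 or more (15 after thinning). In cluster 6 the numbers were 17 of 34 and 5 (1 after thinning). The commonest pairs over all day 3 cells were lepb with edn2 and il34 with edn2, each in 13 cells. The first pair makes 13 of 26 lepb cells and 43.3% of edn2 cells, and the second 46.4% of il34 cells and 43.3% of edn2 cells. Lepb and il34 met in 10 cells (38.5% of lepb cells, 35.7% of il34 cells). For comparison, lepb, il34 and edn2 were seen in 22.8%, 24.6% and 26.3% of all day 3 cells. In cluster 3, where most of the shared cells lay, they were seen in 38.3%, 36.7% and 40.0% of cells. Genes seen in more cells also meet in more cells through these shares alone. Whether cells with 2 or more ligands exceeded the number that such shares give was not tested.

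Cxcl12a met lepb in 3 cells and il34 in 2, that is in 11.5% and 7.14% of the cells with those genes. It met edn2 in 7 cells, 29.2% of cxcl12a cells. All 4 edn2 cells of cluster 6 also held cxcl12a, which was seen in 16 of the 34 cells of that cluster. A single cell, of cluster 3 with 2155 UMIs, held all 4 genes with 1 UMI each. Inside cluster 3, edn2 was found in 12 of 23 cells with lepb (52.2%, 30.6 to 73.2). The share in cells without lepb, 12 of 37 (32.4%), lies inside that interval. Il34 was found in 9 of 23 cluster 3 cells with lepb and in 13 of 37 without, shares that lie within each other's intervals. In cluster 3 thinned to 2000 UMIs, il34 and edn2 met in 3 cells, against 11 at full depth.

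**Figure D3:**
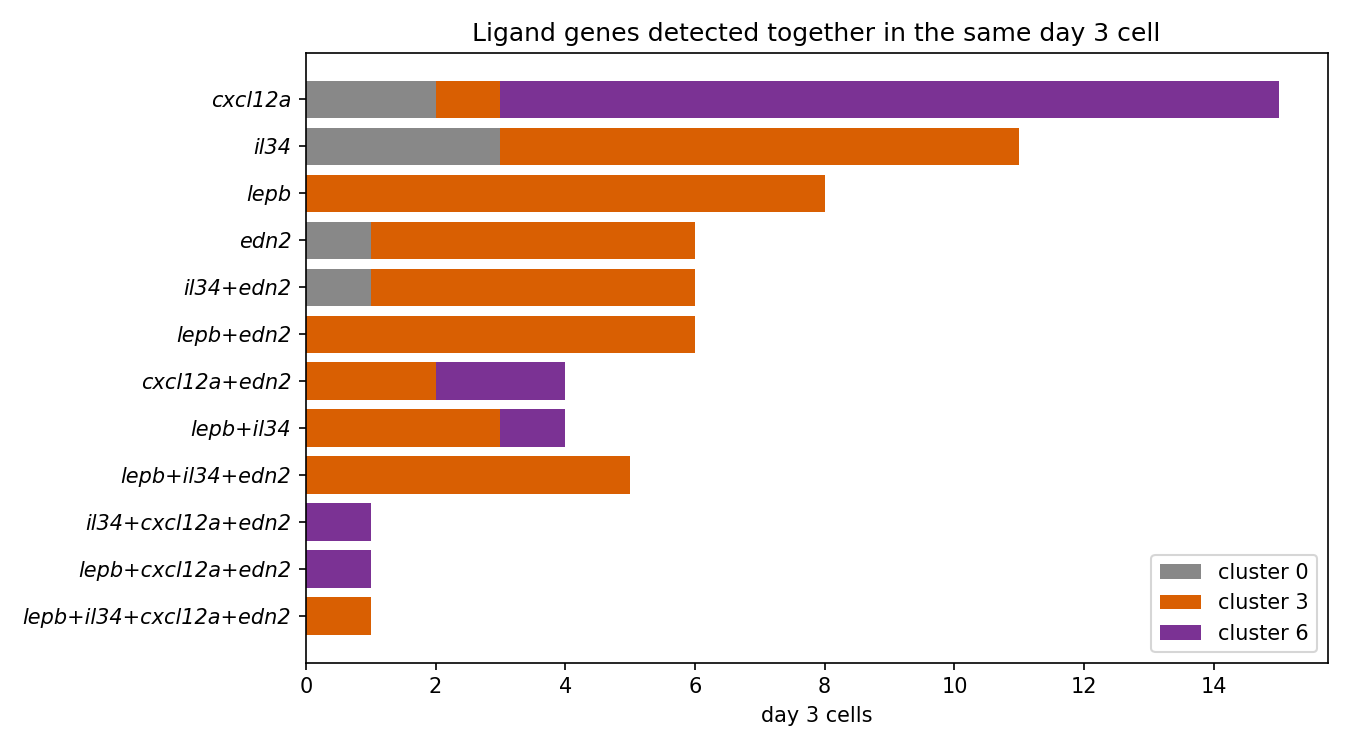
Number of day 3 cells (bars) with each combination of ligand genes, in clusters 0, 3 and 6 by colour. Combinations of lepb, il34 and edn2 lie mainly in cluster 3, including 5 cells with these 3 genes together, while cxcl12a alone is the commonest pattern and lies mainly in cluster 6.

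At day 7, 8 of 53 cells of fibroblast-like cluster 4 held 2 or more ligands (2 after thinning). All 3 lepb cells of that cluster also held cxcl12a, which was seen in 25 of its 53 cells. In cluster 3 of day 7, 3 of 22 cells held 2 or more ligands. At day 0 none of the 21 ligand cells held a UMI of a second ligand, which by 3 counts allows up to 1.1% of all cells to hold UMIs of both, not to express both.

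Nppb, a natriuretic peptide gene of stressed myocardium that leads in cluster 3 as well, was seen in most day 3 cells, with or without a ligand. In endothelial-like cells nppb was found in 25 of 25 cells with lepb, 27 of 28 with il34 and 28 of 30 with edn2, against 64 of 88, 62 of 85 and 61 of 83 cells without them. Of cells with cxcl12a, 15 of 23 had nppb (65.2%), against 74 of 90 without cxcl12a (82.2%). Within cluster 3, where 31 of 37 cells without lepb had nppb, all 23 with lepb had it. There nppb was found in 21 of 22 cells with il34 and 33 of 38 without. For edn2 it was 23 of 24 with and 31 of 36 without. For cxcl12a the numbers were 4 of 4 with and 50 of 56 without in cluster 3. In cluster 6 they were 8 of 16 with cxcl12a and 10 of 18 without. Thinned to 2000 UMIs, endothelial-like cells had nppb in 20 of 20 with lepb and 58 of 93 without, in 18 of 19 with il34 and 60 of 94 without, and in 14 of 17 with edn2 and 64 of 96 without. Free RNA can give single UMIs of a gene. Nppb had 854 UMIs in 54 cells of cluster 3 at day 3 (4135 CPM) and 27 in 18 cells of cluster 6 (148 CPM). A single cluster 3 cell held 271 of the 854. The day 3 library has too few cells of other types for a background share, and at day 7 nppb was seen in 5 of 61 mural-like and 9 of 53 fibroblast-like cells. Cardiomyocyte markers, by comparison, reached 5 UMIs in 165 of 166, 53 of 113 and 212 of 224 endothelial-like cells of days 0, 3 and 7. The part of free RNA in the nppb overlap was not tested.

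Markers of other cell types were compared between day 3 cells with and without each ligand. Summed endothelial markers were 10982 CPM in endothelial-like cells with lepb and 20086 in those without. Of the endothelial marker UMIs in this class at day 3, 45.8% were of the gene fabp11a. Cluster 3, which held 23 of the 25 lepb cells, had a sum of 16524 CPM. Macrophage or monocyte markers summed to 1574 CPM in il34 cells against 592 in others, and to 1598 against 601 for edn2, but within cluster 3 the order was opposite (540 against 1114 for il34, 417 against 1238 for edn2). A single cluster 0 cell of 31129 UMIs held il34, edn2 and 197 of these marker UMIs. The order over endothelial-like cells rests on that cell. In endothelial-like cells as a whole these markers summed to 483, 916 and 363 CPM at days 0, 3 and 7, with 7, 16 and 14 of 21 markers seen. At day 3 most of the UMIs were of cd74b (257), grn1 (69), cd74a (51) and grn2 (40). Mfap4 had 5 UMIs, c1qb and c1qc 6 each, mpeg1.2 2, and mpeg1.1, csf1ra and csf1rb 1 each, while spi1a, spi1b, ptprc, tnfa and il1b were at 0. At day 0 mfap4, c1qc, mpeg1.2, mpeg1.1, csf1ra and csf1rb were at 0 as well. The part of these cells in the ligand levels was not tested beyond leaving them out. Such markers reached 197 UMIs in a single cell of day 3, of 448 in endothelial-like cells, and 211 in a single cell of day 7, of 302. Leaving out the 13 cells with 5 or more of their UMIs kept 36 of 44 lepb, 51 of 68 il34, 51 of 57 edn2 and 30 of 31 cxcl12a UMIs of day 3.

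For cxcl12a the accompanying markers were those of the epicardial list, which summed to 12584 CPM in endothelial-like cells with the gene and 6044 in those without at day 3. Most of that sum was keratin genes, krt8 and krt15, and was 10907 CPM in cluster 6 against 5098 in cluster 3. Cluster 6 held 16 of the 23 endothelial-like cells with cxcl12a at day 3. A single one of these cluster 6 cells, of 10363 UMIs, held 427 of the cluster's 1993 UMIs of this list. In endothelial-like cells of day 3 the epicardial transcription factor genes tcf21, tbx18, wt1a and wt1b were at 0, as was bnc2, while aldh1a2, which makes retinoic acid and is also used by endocardium, had 175 UMIs and podxl 58 (125 and 127 at day 0). Over the days the list summed to 4312, 7457 and 4031 CPM. Its part in the cxcl12a result was not tested.

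The relatives and receptors of the members were followed from 4 lists of 56 genes besides the members, 52 of which were in the table. Of these, 13 reached 10 UMIs in endothelial-like cells of days 0 and 3 together: 9 were higher and 4 lower at day 3, 6 past a log2 ratio of 1 upward and 0 downward, where 11% and 13.0% of all genes were. Their median log2 ratio was 0.53, and that of all genes tested -0.05. By list, 5 of 7 genes of the leptin list were higher, 3 of 4 of the endothelin list and 1 of 2 of the Cxcl12 list. From the Csf1 receptor list 0 genes reached the minimum. The lists are wider than the pathways they are named for. In the leptin list the higher genes were jak2a, socs3b, il6st, junbb and il11a, the last a separate cytokine. In the Cxcl12 list the higher gene was cxcl14, another chemokine, and the receptor gene ackr3b was lower. At day 7 against day 0, 6 of 12 were higher, and 2 were past the same size in each direction. Of all genes tested, 6.6% were past it upward and 9.82% downward. The lists were drawn up with earlier results of these data known.

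The other endothelin gene seen, edn1, had the cluster order of edn2 at day 3 but not at day 7. Edn1, the best known endothelin of endothelium, had 28 UMIs at day 0, 140 at day 3 and 146 at day 7. Its endothelial-like level was 53.0, 286 and 172 CPM, 5.40-fold above day 0 at day 3 (3.56 to 8.48) and 3.25-fold at day 7 (2.14 to 5.09). At day 3 it stood at 533 CPM in cluster 3 and 87.6 in cluster 6 (6.08-fold, 3.58 to 11). At day 7 it was as high in cluster 0 (185 CPM) as in cluster 3 (140.5), unlike edn2 (34.8 and 270). Across all cells, 33 of the 62 edn2 cells also held edn1.

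The endothelin-converting enzyme ece1 had the opposite order between the clusters. It stood at 9.68 CPM in cluster 3 and 93.0 in cluster 6 at day 3, 9.61-fold lower in the cluster that held most endothelin transcripts (2.28 to 85.7). Endothelial-like cells as a whole had 39.3 CPM before injury, 49.1 at day 3 and 16.8 at day 7. The receptor gene ednraa was sparse, with 12, 16 and 14 UMIs at days 0, 3 and 7. Its endothelial-like level of 32.7 CPM at day 3 was 1.67-fold that of day 0 (0.711 to 4.11). Furina, a protease gene of endothelin processing, had 8 UMIs at day 0 and 6 at day 3 in endothelial-like cells (0.781-fold, 0.223 to 2.57). Ednrab had 2 UMIs in all, and ednrba and ednrbb had none.

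Cxcl14, another chemokine, had its transcripts in the same clusters as cxcl12a at days 0 and 3. It had 11 UMIs at day 0, all in mural-like cells, and 48 at day 3, of which 43 lay in 24 of the 34 cells of cluster 6 (235 CPM) and 0 in cluster 3. In endothelial-like cells it had 0 UMIs at day 0 and 46 at day 3, at least 16.0-fold higher. The 2 chemokines parted at day 7, when cxcl14 had 7 UMIs in all and 0 in cluster 4, where cxcl12a was highest. The scavenger receptor gene ackr3b was at 72.7, 47.0 and 30.1 CPM in endothelial-like cells of days 0, 3 and 7. The signalling receptors were sparse, cxcr4b with 16 UMIs in 8 cells and cxcr4a with 2 UMIs.

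Receptors of leptin and Il34 were close to unseen in these cells. Lepr had 0, 2 and 5 UMIs at days 0, 3 and 7, csf1ra 0, 1 and 1, and csf1rb 0, 1 and 0. These were named for their role after their low counts were seen. The other leptin gene, lepa, and the other Csf1 receptor ligand csf1b had no UMI in any of the 754 cells, and csf1a had 1.

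Genes downstream of cytokine receptors of the leptin type were not all higher at day 3. Socs3b, a feedback inhibitor of such receptors, stood at 47.1 CPM in endothelial-like cells of day 0 and 186 at day 3 (3.95-fold, 2.49 to 6.47), while its paralog socs3a stood at 314 and 292 (0.930-fold, 0.737 to 1.17). Socs1a, another such inhibitor, had 11 UMIs at day 0 and 3 at day 3, a difference not beyond counting error (0.284-fold, 0.0509 to 1.07). The transcription factor gene junbb was at 190 and 484 CPM (2.54-fold, 2.00 to 3.26), and the kinase gene jak2a had 3 and 11 UMIs (3.82-fold, 1.01 to 21.3). The shared receptor gene il6st was level (10 and 11 UMIs, 1.15-fold, 0.441 to 3.01), and stat3 had 5 and 2 UMIs, under the minimum of 10. Unlike lepb, socs3b was higher in cluster 6 (252 CPM) than in cluster 3 (126) at day 3. The cytokine gene il11a had a course like that of lepb between days 0 and 3, with 0 UMIs at day 0 and 13 in endothelial-like cells at day 3, 10 of them in cluster 3 and 0 in cluster 6 (at least 4.51-fold higher than day 0). At day 7 it had 24 UMIs, 13 of them in cluster 3 and 6 in cluster 4.

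**Figure D4:**
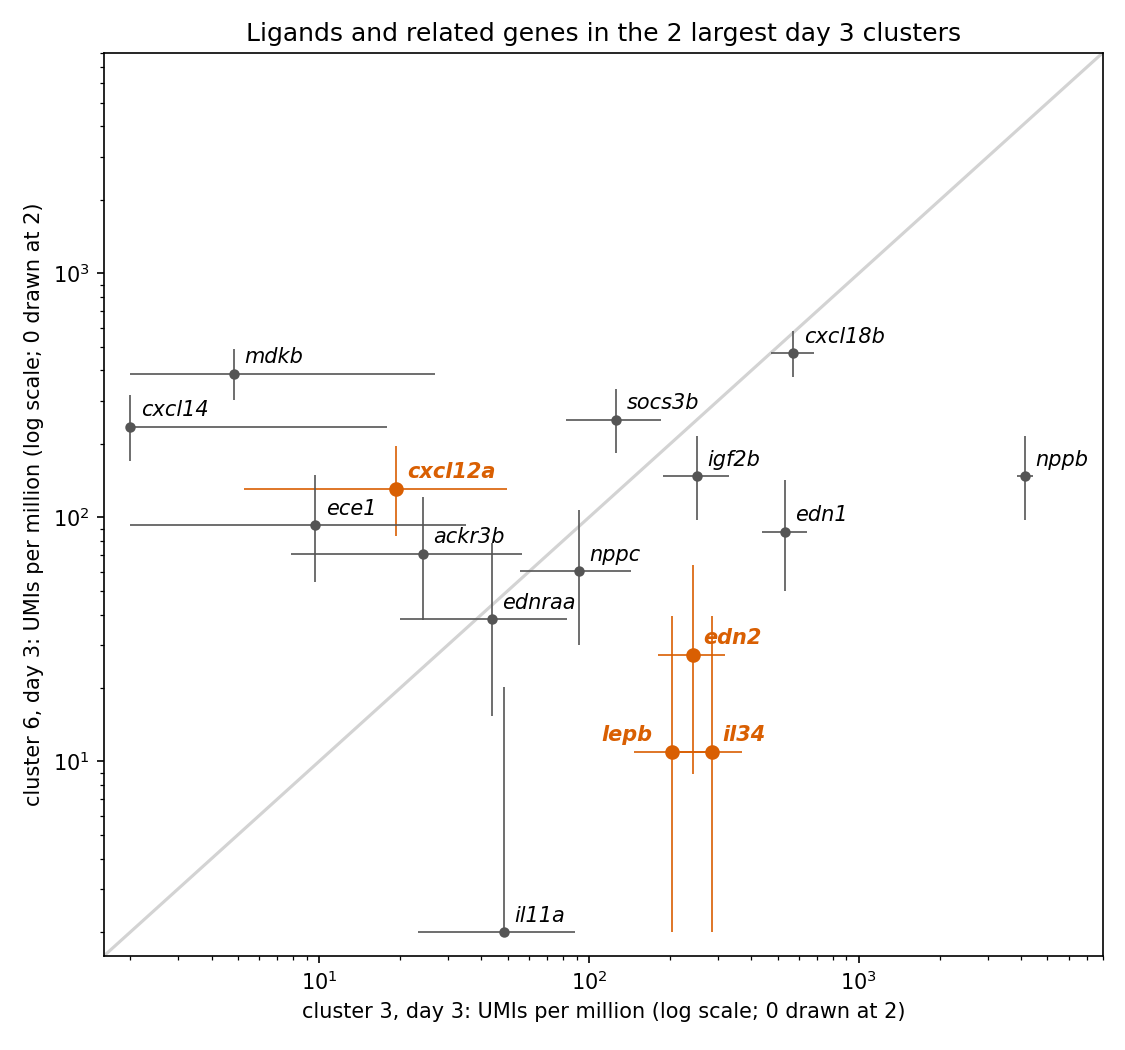
Level at day 3 in cluster 3 (x axis) against cluster 6 (y axis), both in CPM on log scales with 0 drawn at 2 and 95% Poisson intervals, for the 4 members (orange) and for related or other ligand genes (grey). Points on the grey line are equal in both clusters; lepb, il34, edn2, edn1 and il11a lie below it, and cxcl12a, cxcl14, mdkb and ece1 above it.

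Levels were compared by Pearson's correlation of log2(CPM + 10) over the 12 groups of cluster and day with at least 10 cells. The genes most like each member were taken from 3805 genes with at least 30 UMIs over all cells. For lepb these were TIFA (r = 0.89), stra13 (0.89), hmga1a (0.88), ptbp1a (0.88) and edn2 (0.88). For edn2 they were igf2b (0.91), zgc:195023 (0.90), lepb (0.88), hmga1a (0.88) and adssl (0.88). For il34 they included tuba8l (0.93), cd276 (0.89), rps12 (0.88) and hars (0.84). For cxcl12a they were si:ch211-198c19.3 (0.89), cpn1.2 (0.88), sparc (0.86), zgc:163030 (0.86) and rbp5 (0.85).

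Among the members, lepb and edn2 were most alike (r = 0.88), with il34 at 0.76 to both, while cxcl12a had r of 0.12, 0.21 and -0.01 with lepb, il34 and edn2. These are descriptions over 12 points that share 3 libraries, and a single group, cluster 3 of day 3, is the highest or next to highest for 3 members. Taken by overlap of detecting cells instead, edn2 and lepb stayed in each other's first 5, and no other gene stayed in the first 5 of its member. By that measure si:ch211-153b23.5 came first for lepb, il34 and edn2 (20 of 33, 25 of 60 and 27 of 62 of their cells), edn1 and ptgs2a were among the first 5 for edn2, and clu, col12a1a and lum were among those for cxcl12a.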

How the data were processed

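The authors deposited natural log (ln) values of 26320 genes in 754 cells and, per the file headers, a metadata table with each cell's UMI count, day and cluster number at a resolution of 0.4. Cell Ranger and the build GRCz10 are named in the submitters' processing notes, without a version or a normalization tool. Reversing the log and multiplying by each cell's UMI count gave whole numbers within 0.001 for all 497895 values above 0. These recovered counts were used throughout (Python 3.11.15, NumPy 2.4.6, SciPy 1.17.1, pandas 2.3.3, Matplotlib 3.10.9). Folds are plain ratios with exact intervals for 2 counts; where 1 group is at 0, "at least" is the ratio to 3 counts in that whole group. Folds and intervals were tested on simulated Poisson totals of each group, which cannot show how they behave where UMIs clump in single cells. Doublets were neither called nor removed here. Thinning drew 2000 UMIs per cell once. The members were named in full. Receptors and relatives in fixed lists could be named where they had at least 10 UMIs over all cells, and each that reached 10 in endothelial-like cells of days 0 and 3 is given. Of other ligands the text gives the 5 highest and 3 lowest log2 ratios. One gene of the comparison of like levels is not reported here. Members and lists were chosen with earlier results of these data known. All 4 symbols matched the RefSeq table of zebrafish gene names; positions and sequences were not analysed here. Markers for naming clusters were fixed lists; leading genes were ranked among those found in at least 25% of a cluster's cells.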

Additional observations from a re-analysis of the deposited data

How the results depend on the processing

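Results were recomputed for 114 combinations of result and alternative, of which 75 stayed within the counting interval (counts and shares: within 1.5 times), 38 moved beyond it and 1 changed sign. At day 3 against day 0 (log2 ratios 3.32 for lepb, 3.06 for il34, 2.88 for cxcl12a, 1.75 for edn2), 51 of 52 alternatives were above 0, the exception being lepb in cluster 0, which had no UMI on either day (0). The members were chosen by this contrast, so that count supports nothing on its own. A pseudocount cannot change a sign. With 0 UMIs of lepb and cxcl12a in day 0 endothelial-like cells, their ratios within that class could not fall below 0. A pseudocount of 1 CPM gave 6.51, 3.98 and 6.01 for lepb, il34 and cxcl12a, and 50 CPM gave 1.48, 1.71 and 1.18. Averaging over cells gave lepb 3.79, thinning gave lepb 4.0, and all cells gave cxcl12a 1.94. Cluster 3 alone gave 4.42, 4.89, 1.55 and edn2 0.59, and cluster 0 alone gave cxcl12a 1.68. Without cells with macrophage markers edn2 was 2.72. Leaving out cells with epicardial markers, whose list holds keratins of most cells, left 15, 3 and 29 endothelial-like cells at days 0, 3 and 7 and gave 5.54, 2.1, 4.01 and 4.97, and at day 7 against day 0 gave lepb 0, il34 -1.91 (the sign change) and edn2 2.22; with so few cells these say little. At day 7 against day 0, a pseudocount of 1 CPM gave lepb 3.70 and cxcl12a 2.81, all cells gave cxcl12a 1.59, cluster 0 alone gave il34 1.91, and edn2 was 1.59 averaged over cells, 1.74 thinned and 1.74 without cells with macrophage markers, against 0.90. Day 3 cells with 2 or more ligands numbered 16 thinned, 5 with at least 2 UMIs of each and 2 without epicardial-marker cells, against 29. The share of genes past a log2 ratio of 1 at day 3 was 5.13% higher and 5.62% lower with no minimum of UMIs. The comparisons within cluster 0 or 3, and those without the shared barcode or the deepest cell in the overlap, were added after seeing the data. No paired analysis was possible because each day has 1 library. Depth limits single genes: with 2004 UMIs or more per cell, a cell without a UMI may still express the gene, and no value here has a replicate.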

Other observations

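A list of 123 other ligand genes, which also holds Notch ligand and matrix genes, had 109 among the genes measured. Of these, 26 had at least 10 UMIs in endothelial-like cells of days 0 and 3. At day 3, 15 of these 26 were higher and 11 lower, 9 and 5 of them past a log2 ratio of 1. Of all genes tested in that contrast, 11% were higher and 13.0% lower by as much. The median log2 ratio was 0.33 for the 26 listed genes and -0.05 over all genes tested. The natriuretic peptide gene nppb stood at 33.4 CPM at day 0 and 2136 at day 3 (64.0-fold, 39.8 to 110), and nppc, of the same family, at 7.85 and 87.9 CPM (11.2-fold, 4.07 to 42.9). Single day 3 cells held 271 of the 1045 nppb UMIs and 13 of the 43 nppc UMIs. Without the richest cell of each day the log2 ratios were 5.33 in place of 5.63 and 2.44 in place of 2.45. The heparin-binding growth factor gene mdkb stood at 15.7 and 164 CPM (10.4-fold, 5.04 to 24.9). The insulin-like growth factor gene igf2b was at 56.9 and 194 CPM (3.41-fold, 2.23 to 5.36), and the chemokine gene cxcl18b at 151 and 460 (3.04-fold, 2.34 to 3.99). The largest differences downward were those of postna, a matrix gene with 18 UMIs at day 0 and 0 at day 3 (log2 ratio -2.18), cxcl20 (167 and 49.1 CPM) and pros1, which encodes the anticoagulant protein S (200 and 67.5 CPM).

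These genes also differed in which day 3 cluster held them. Nppb was 28.0-fold higher in cluster 3 than in cluster 6 (19.1 to 42.7), the order of lepb, il34 and edn2. Mdkb had 1 UMI in cluster 3 and 71 in cluster 6, the order of cxcl12a; mural-like cells of day 0 and day 7 held 352 and 413 UMIs of it. Nppc (92.0 and 60.2 CPM) and cxcl18b (571 and 471 CPM) did not differ between the clusters beyond counting error. At day 7 nppb stayed high in endothelial-like cells (884 CPM), while nppc (12.0 CPM) and mdkb (21.7 CPM) were within counting error of day 0.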
